A study of Mus musculus with 38 samples.

Results

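Npas4, the Egr and Nr4a families and Ier2 are activity-regulated early genes, and their transcripts were followed here in granule cells of the mouse dentate gyrus collected the day after training. The members were taken by gene symbol (Egr1, Egr2, Egr3, Egr4, Nr4a1, Nr4a2, Nr4a3, Npas4 and Ier2) and make up 9 of the 23420 genes counted in every library. Male adult Arc::dVenus mice on a C57BL/6J background carried a destabilized Venus reporter under the promoter of Arc, so that dVenus+ cells are granule cells in which this promoter had been active and dVenus- cells are nonfluorescent neighbors. Mice underwent fear conditioning with tones and foot shocks (FC, 12 mice), the same chamber protocol without shocks (NS, 4 mice), or remained in the home cage (HC, 3 mice). From each mouse, 10 dVenus+ and 10 dVenus- cells were drawn into patch pipettes together with their nuclei and pooled by type, giving 1 library of each type per mouse and 38 libraries in total. Since cells were picked by a reporter of the Arc promoter, dVenus+ describes the recent history of that promoter, and a library is the average of its pooled cells.

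Early genes are transcribed within minutes of strong synaptic input from factors already present in the cell, and for most of them the RNA fades within hours. The Egr genes encode zinc finger activators that bind GC-rich DNA, the Nr4a genes encode orphan nuclear receptors that act without a known hormone, and Npas4 encodes a neuronal bHLH-PAS factor that is induced by calcium entry and shapes inhibitory synapses. Ier2 is a small nuclear protein of the same rapid response. In the dentate gyrus, where granule cells fire rarely, these genes are widely used to find the few neurons that were recently active.

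Sequencing depth varied between libraries. Counts on genes ranged from 1352288 to 11151828 (median 7080448) in FC dVenus+ libraries and from 3554946 to 18394761 (median 9955727) in FC dVenus- libraries. The 4 NS libraries of each type held 5713182 to 8470731 (dVenus+) and 8415900 to 8771721 counts (dVenus-), and the 3 HC libraries of each type 5970884 to 7456391 and 6856117 to 9096451. Levels are therefore given as normalized CPM (CPM, in which the counts on genes of every library are brought to the same total, here adjusted by TMM factors over all libraries). With pools of 10 cells, a transcript carried by fewer cells cannot be told apart from less RNA per cell. Amplified reads were not tagged by molecule, and every limit or interval below covers counting error only. Limits, floors and ratios of summed counts use the total counts on genes, without the TMM factors (0.306 to 1.83).

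Arc was used to check the labels. It reached 477 to 1539 normalized CPM in the FC dVenus+ libraries, and in all 19 mice it was higher in the dVenus+ library, which the picking of cells by its promoter makes no finding. However, 3 libraries labelled dVenus-, those of FC mice 6, 7 and 14, held 1276, 1095 and 2549 Arc counts, whereas the other FC dVenus- libraries had at most 16. Results that rest on these mice are given with and without them. The FC libraries belong to 3 sample series, with 2, 4 and 6 mice, and none of these holds an NS or HC mouse, since the other 7 mice form a series of their own. Training and sample series therefore cannot be told apart when FC is set against NS or HC.

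The early genes were detected patchily rather than as a block. An FC dVenus+ library held at least 1 count of 2 to 9 members (median 6.0), and an FC dVenus- library likewise of 2 to 9 (median 5.0). In NS mice the range was 4 to 6 members in dVenus+ and 2 to 5 in dVenus- libraries, and in HC mice 2 to 5 and 2 to 3. The dVenus+ library of FC mouse 10 held all 9 members, and so did the dVenus- library of FC mouse 1, although only 3 members reached 10 counts in the latter.

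**Figure D1:**
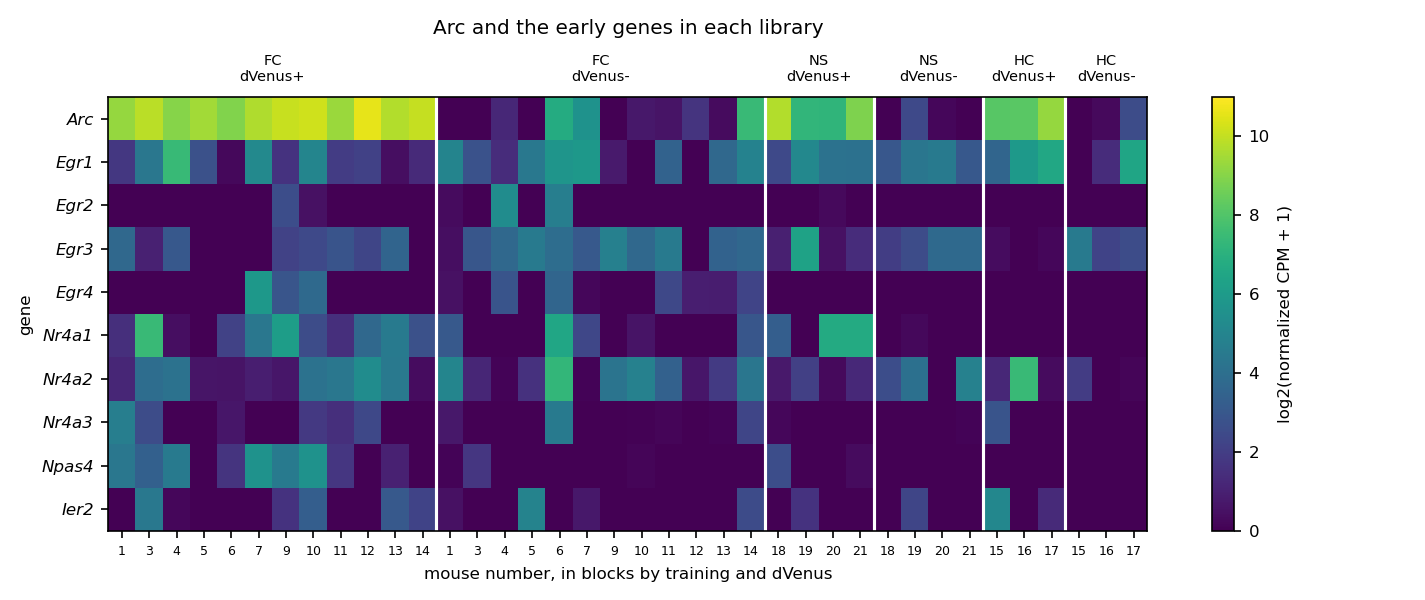
Heat map of log2(normalized CPM + 1) for Arc and the 9 early genes (down the side) in each of the 38 libraries (across, by mouse number, in blocks by training and cell type). Arc fills the dVenus+ blocks and passes 100 counts in 3 FC dVenus- libraries (mice 6, 7 and 14), whereas the early genes form scattered patches, and Egr4 is at 0 in all NS and HC libraries.

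Npas4 was the member called between the cell types in FC mice in the fit of all genes with a count, with more in dVenus+ cells. It did not enter the filtered test, where no member was called. The plan did not count members outside that test as called. In FC mice it ranged from 0 to 47.3 normalized CPM (median 5.88) in dVenus+ and from 0 to 2.38 (median 0) in dVenus- libraries. The 9 mice with any Npas4 in dVenus+ cells all had less in their dVenus- cells, and FC mice 5, 12 and 14 had none in either library. The groups overlap, through these zeros and through FC mice 6, 11 and 13, whose dVenus+ libraries (2.13, 2.32 and 0.99) lay below the dVenus- library of FC mouse 3 (2.38). At least 10 counts were reached in 9 of 12 dVenus+ libraries and in 1 of 12 dVenus- libraries (FC mouse 3, 11 counts).

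The mean was 14.3 ± 17.6 normalized CPM in dVenus+ and 0.214 ± 0.684 in dVenus- cells (SD, n = 12). The filtered test (edgeR, quasi-likelihood, mouse as block) took genes with 10 counts or more in a number of libraries equal to the number of mice, and Npas4 fell short of this in FC mice. It was therefore read from the same test over all 18089 genes with a count, where its log2 fold change was 7.67 ± 1.60 (SE) with an adjusted p of 0.023. The SE of every edgeR fold change was worked back from the fold change and the F statistic of its test, whereas DESeq2 gave its own. That fit called 133 genes (0.735%) at an adjusted p under 0.05 and an absolute log2 fold change over 1, and 56 of them (0.31%) were higher in dVenus+ cells, as Npas4 was.

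The difference kept its direction throughout, but the call was near its threshold. The log2 fold change stayed between 7.07 and 8.37 when each FC mouse was left out in turn, and the adjusted p rose to between 0.0501 and 0.0564 without mouse 1, 6, 7, 9, 10 or 13. Without the 3 mice with Arc in dVenus- cells it was 7.41 ± 1.84, with an adjusted p of 0.152 over 9 mice. Those 3 dVenus- libraries, rich in Arc, held no Npas4 count. Within the sample series of 2, 4 and 6 mice the log2 fold change was 4.73 ± 4.31, 9.49 ± 3.69 and 7.94 ± 2.14, none called (adjusted p 0.79, 0.838 and 0.509). Across all alternatives the adjusted p of edgeR or DESeq2 ran from 3.22e-05 to 0.838.

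In NS mice, Npas4 rested on 1 animal. The dVenus+ libraries of mice 18, 19, 20 and 21 had 5.12, 0, 0 and 0.234 normalized CPM, and their dVenus- libraries had no count. Against a floor of 3 counts over the dVenus- group, this is at least 16.4-fold higher in dVenus+ cells, with 97.4% of the counts from mouse 18. No Npas4 count was found in the 6 HC libraries. Before TMM factors, this allows up to 0.147 CPM in the dVenus+ and 0.122 in the dVenus- group.

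The promoters of Npas4, Nr4a1 and Nr4a2 all hold the letters of a short cAMP response element, and the 250 bases before each listed start are shown. These genes were chosen because Npas4 was called in the fit of all genes, Nr4a1 lay on the same side and Nr4a2 was fitted near 0. For Npas4 and Nr4a1 the listed start lies inside the annotated span of the gene, which reaches further upstream. The RefSeq windows of GRCm38.p6 cover Npas4 at chr19:4989972-4990221 on the minus strand, Nr4a1 at chr15:101266596-101266845 on the plus strand and Nr4a2 at chr2:57124004-57124253 on the minus strand. Capitals mark the 5 letters TGACG or their reverse complement CGTCA.
Npas4: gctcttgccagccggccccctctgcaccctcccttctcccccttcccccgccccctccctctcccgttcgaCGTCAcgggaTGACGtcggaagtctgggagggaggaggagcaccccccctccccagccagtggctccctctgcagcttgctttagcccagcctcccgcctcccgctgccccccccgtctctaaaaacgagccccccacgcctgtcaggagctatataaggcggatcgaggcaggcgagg
Nr4a1: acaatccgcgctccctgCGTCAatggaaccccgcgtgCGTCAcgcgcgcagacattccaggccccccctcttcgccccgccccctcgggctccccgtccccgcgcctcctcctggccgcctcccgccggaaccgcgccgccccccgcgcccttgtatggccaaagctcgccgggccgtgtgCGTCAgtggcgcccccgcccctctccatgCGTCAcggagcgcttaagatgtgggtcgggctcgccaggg
Nr4a2: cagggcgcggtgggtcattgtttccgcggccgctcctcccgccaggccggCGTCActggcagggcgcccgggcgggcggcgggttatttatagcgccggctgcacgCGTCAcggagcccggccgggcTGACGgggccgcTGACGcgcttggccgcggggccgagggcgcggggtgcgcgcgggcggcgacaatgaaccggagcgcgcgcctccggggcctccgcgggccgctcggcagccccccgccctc

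Windows of 300 bases, from 250 before to 50 after the start, were listed for 6 of the 9 members (Egr2, Egr4, Nr4a1, Nr4a2, Nr4a3 and Npas4). TGACG on either strand occurred 2 times in the window of Npas4 and of Egr4 and 4 times in each of the Nr4a windows. Of the 5 windows of Egr2, 3 overlapping ones held it 2 times and the others did not hold it, and 20.8% of all 32851 windows held it at least 1 time. The longer palindrome TGACGTCA, which contains TGACG on both strands, was in none of the member windows and in 1.79% of all. A CArG box, the element bound by SRF, was found in 4 of 5 overlapping or neighboring windows of Egr2 and in no other member window (1.63% of all windows). The Egr motif GCGTGGGCG or GCGGGGGCG occurred in the Nr4a1 window (3.47% of all) and the Nr4a motif AAAGGTCA in none (1.51% of all). These matches describe the letters of the windows and not binding.

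Among the nuclear receptors, Nr4a1 had a count in more dVenus+ than dVenus- libraries of FC mice (11 against 5 of 12). Summed counts were 1322 against 1369, not adjusted for depth, and 78.5% of the latter came from mouse 6. Mean levels were 26 ± 49.7 in dVenus+ and 9.12 ± 25.9 normalized CPM in dVenus- cells (SD, n = 12). In FC mice Nr4a1 ranged from 0 to 172 normalized CPM (median 5.26) in dVenus+ and from 0 to 90.8 (median 0) in dVenus- libraries. At least 10 counts were present in 10 of 12 dVenus+ and 4 of 12 dVenus- libraries. The dVenus- libraries that held it included all 3 with Arc counts (90.8, 4.13 and 6.74 normalized CPM in mice 6, 7 and 14), so the groups overlapped.

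Nr4a1 was higher in the dVenus+ library of 8 FC mice and lower in 3, of which 2 were mice 6 and 14. Its log2 fold change was 4.40 ± 1.99 (SE), with an adjusted p of 0.35 by edgeR's quasi-likelihood test over 9709 genes, and it was not called. DESeq2 gave 4.67 ± 1.13, with an SE obtained in another way, and called it (adjusted p = 0.000687), as the only one of the alternatives to do so. Without the 3 Arc mice, Nr4a1 averaged 31.5 ± 56.9 normalized CPM in dVenus+ and 0.866 ± 2.42 in dVenus- cells (SD, n = 9) and was higher in 7 of 9 mice, with a log2 fold change of 7.26 ± 2.03 and an adjusted p of 0.219. Within the 3 sample series the log2 fold change was 3.73 ± 5.71, 1.01 ± 2.96 and 6.91 ± 2.43, all above 0 and none called.

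NS mice showed the same gene at its highest mean. Nr4a1 stood at 8.76, 0, 105 and 104 normalized CPM in the dVenus+ libraries of mice 18, 19, 20 and 21, against 0, 0.181, 0 and 0 in their dVenus- libraries. Thus 3 of 4 mice had much more Nr4a1 in dVenus+ cells, and mouse 19 had almost none in either. The summed counts, 1030 against 1, give a ratio of 1303 before TMM factors, with an exact counting interval of 233 to 51509. Without mouse 20, which held 50.5% of the dVenus+ counts, the ratio was 609 (interval 109 to 24116). Nr4a1 was not called by edgeR (adjusted p = 0.964, all genes with a count), whereas DESeq2 called it (adjusted p = 0.00291). All 6 HC libraries lacked Nr4a1, at the same limits as for Npas4.

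Nr4a2, which in other neurons is needed for dopaminergic identity, was present in all 24 FC libraries without a side. It ranged from 0.298 to 39.2 normalized CPM (median 7.84) in dVenus+ and from 0.0828 to 154 (median 6.2) in dVenus- libraries, and 6 mice were higher on each side. The fitted log2 fold change of 0.12 ± 1.66 (adjusted p = 0.987) changed sign in 10 of 22 alternatives. Without the 3 Arc mice it was 1.03 ± 1.81, with means of 14.4 ± 12.5 normalized CPM in dVenus+ and 10.2 ± 12.1 in dVenus- cells (SD, n = 9). In NS mice the dVenus+ libraries held 0.674, 3.27, 0.202 and 1.4 normalized CPM and the dVenus- libraries 5.03, 15.7, 0 and 27.7, lower in dVenus+ cells in 3 of 4 mice. In HC mice 1 library, that of dVenus+ cells of mouse 16, carried 174 normalized CPM, 98.2% of the counts in its group, whereas mice 15 and 17 had 1.37 and 0.265. The HC dVenus- libraries held 2.89, 0 and 0.0973.

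Nr4a3 had fewer counts than Nr4a1 and Nr4a2 in FC mice. In FC mice it ranged from 0 to 25 normalized CPM (median 0.291) in dVenus+ and from 0 to 21.8 (median 0.0266) in dVenus- libraries, with 10 counts or more in 5 and 2 libraries. The 2 dVenus- libraries were those of mice 6 and 14, which held Arc. Without the 3 Arc mice, Nr4a3 averaged 4.28 ± 8 normalized CPM in dVenus+ and 0.0997 ± 0.206 in dVenus- cells (SD, n = 9), and no dVenus- library reached 10 counts. The log2 fold change was 2.34 ± 2.09 with all mice (adjusted p = 0.817) and 4.09 ± 1.93 without those 3 (adjusted p = 0.633). NS libraries held 1 count in each cell type, and HC libraries 23 counts, all in dVenus+ cells of mouse 15, at least 9.18-fold higher than the floor in dVenus- cells.

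**Figure D2:**
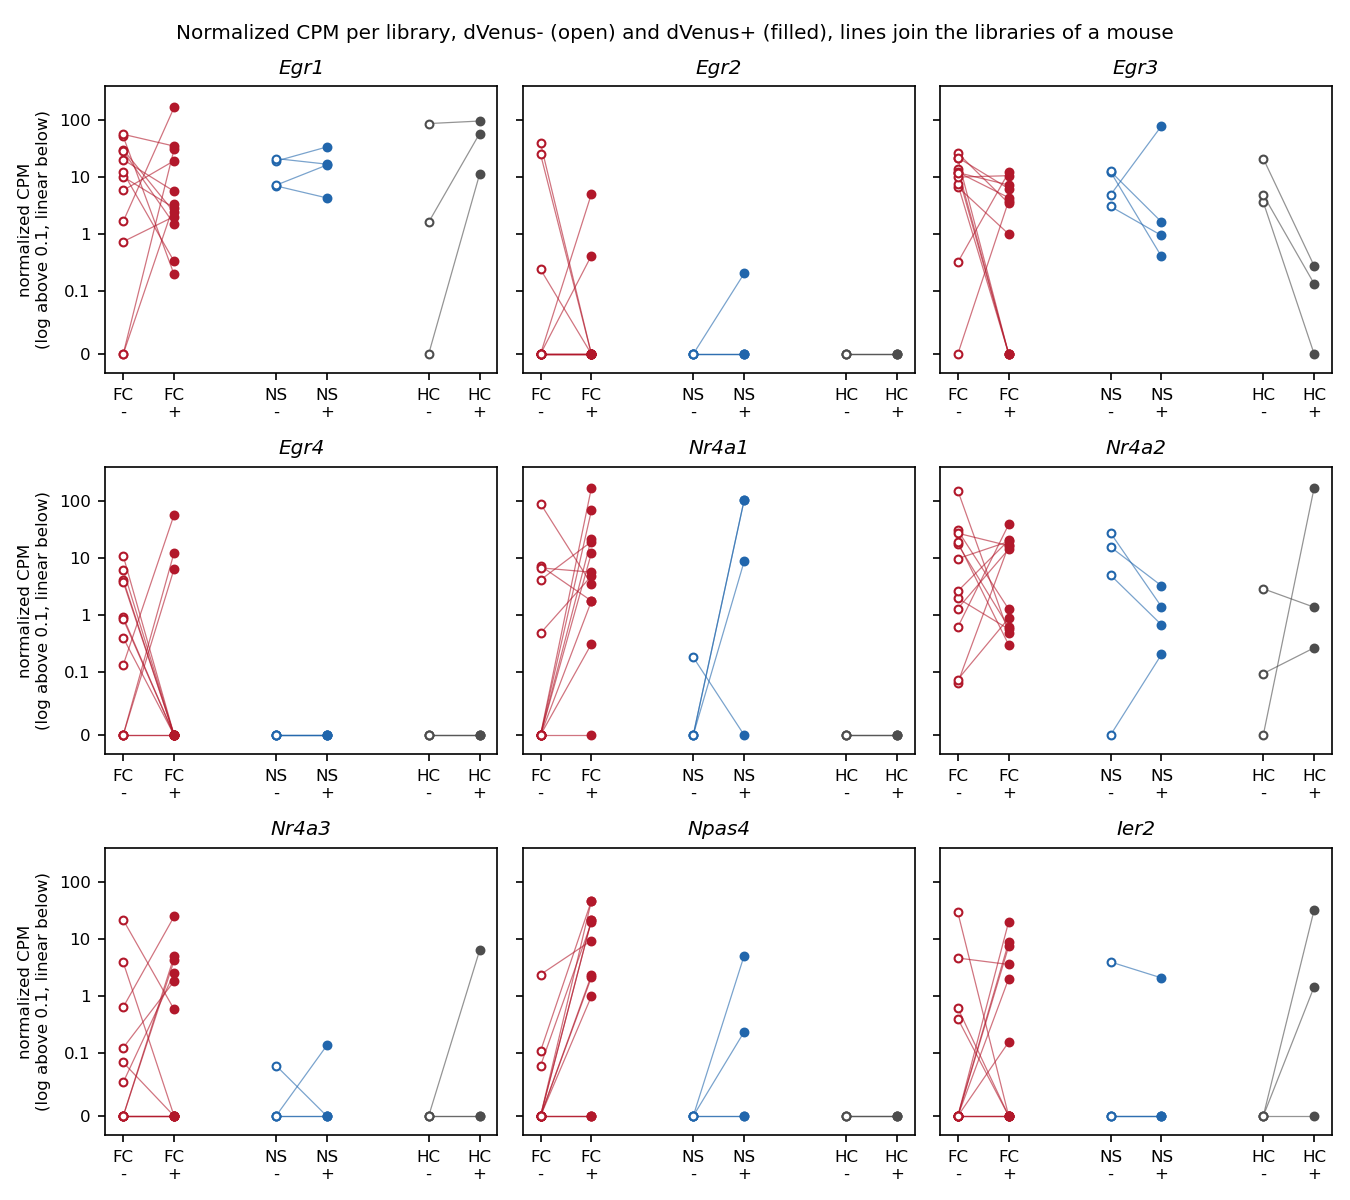
Normalized CPM of each early gene in every library (vertical axis, logarithmic above 0.1 and linear below), for FC (12 mice), NS (4) and HC (3) dVenus- cells (open) and dVenus+ cells (filled), with lines joining the 2 libraries of a mouse. Npas4 lines rise or stay at 0 in all 19 mice, Egr3 lines fall in 15 of 19, and Egr1 and Nr4a2 lines cross.

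The Egr genes did not follow Npas4. Egr1, the family member most often used as a marker of activity and plasticity, was found in all 12 FC dVenus+ libraries (0.194 to 168 normalized CPM, median 3.13) and in 10 of 12 dVenus- libraries (0 to 56.6, median 11.1). It was higher in dVenus+ cells in 5 mice and in dVenus- cells in 7. The 3 dVenus- libraries with Arc were among the 4 with most Egr1, at 52.1, 56.6 and 28.6 normalized CPM, against a mean of 9.03 ± 10.6 in the other 9 (SD).

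The log2 fold change of Egr1 in FC mice was -0.65 ± 1.75 (adjusted p = 0.94), and it moved to 0.86 ± 2.06 without the 3 Arc mice and to 0.37 ± 1.04 without mouse as block. In NS mice, Egr1 stood at 4.31, 33.9, 16.9 and 16.3 normalized CPM in dVenus+ and 7.01, 19.1, 21.2 and 7.2 in dVenus- libraries, with 2 mice on each side. In HC mice it was higher in dVenus+ cells in 3 of 3, at 11.2, 58.2 and 96.8 against 0, 1.61 and 87.4 normalized CPM. The pairs of mice 15 and 16 were far apart and that of mouse 17 was close, and the adjusted p was 0.984.

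Egr3, which is induced alongside Egr1 and is required for muscle spindles, was lower in dVenus+ cells of most FC mice. It ranged from 0 to 12.2 normalized CPM (median 3.65) in FC dVenus+ and from 0 to 26.4 (median 11.8) in FC dVenus- libraries, and was lower in dVenus+ cells in 9 of 12 mice. Over all groups it was lower in dVenus+ cells in 15 of 19 mice. The FC log2 fold change was -2.48 ± 1.54 (adjusted p = 0.552), and within the sample series of 2, 4 and 6 mice it was 1.34 ± 5.01, -7.39 ± 3.21 and -1.52 ± 1.80. Without the 3 Arc mice it was -1.03 ± 1.46.

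As a ratio of mean levels, HC mice had the widest Egr3 gap. Their dVenus+ libraries held 0.274, 0 and 0.133 normalized CPM and their dVenus- libraries 21.2, 3.63 and 4.86, lower in dVenus+ cells in 3 of 3 mice. The summed counts were 2 against 354, a ratio of 0.00677 before TMM factors, with an exact counting interval of 0.000817 to 0.0246. The mean levels, which include these factors, were 0.136 and 9.9 normalized CPM. Mouse 15 held 80.8% of the dVenus- counts, and without it the ratio was 0.0162 (1 against 68 counts, interval 0.000404 to 0.0933). With 3 mice the adjusted p was 0.984, and the HC fit called 2 of 7588 genes (0.0264%), neither of them an early gene. In NS mice, Egr3 stood at 0.943, 79.2, 0.403 and 1.63 in dVenus+ and 3.05, 4.87, 12.4 and 12.6 in dVenus- libraries, so that mouse 19 opposed the other 3 (adjusted p = 1).

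Egr2 and Egr4, the former best known for its role in myelination and hindbrain patterning, were the Egr genes found in the fewest libraries. Egr2 reached 10 counts in 1 FC dVenus+ library (mouse 9, 25 counts) and in 2 dVenus- libraries (mice 4 and 6, 479 and 301 counts). Egr4 reached 10 counts in 3 dVenus+ libraries (mice 7, 9 and 10, with 330, 32 and 149 counts) and in 5 dVenus- libraries, with at most 130 counts. For neither gene did both libraries of a mouse reach 10 counts. Both were essentially missing outside FC, where the sample series also differed, with 1 Egr2 count in NS mice and none in HC mice, and no Egr4 count in all 14 NS and HC libraries.

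The log2 fold changes of Egr2 and Egr4 in FC mice were -1.20 ± 1.69 and -4.78 ± 2.64 (adjusted p = 0.885 and 0.593), and without the 3 Arc mice 0.27 ± 1.98 and -4.37 ± 2.96. For Egr4 the fitted sign opposes the group means, which were 6.41 ± 16.7 normalized CPM in dVenus+ and 2.3 ± 3.45 in dVenus- cells (SD, n = 12). Mouse 7 held 75.3% of the summed dVenus+ level, and Egr4 was lower in dVenus+ cells in 7 mice and higher in 3. Its log2 fold change was -5.68 ± 2.46 without mouse 7. It was 1.47 ± 1.53 without mouse as block and -0.41 ± 1.65 with the newer quasi-likelihood method. The dVenus- library of mouse 6 is of interest here. It held 616, 301, 167 and 130 counts of Egr1, Egr2, Egr3 and Egr4 and 1074, 1819 and 258 of Nr4a1, Nr4a2 and Nr4a3, beside 1276 of Arc, but none of Npas4 or Ier2. It contributed 78.5% of the Nr4a1 counts, 53.5% of the Nr4a2 counts and 78.7% of the Nr4a3 counts in FC dVenus- cells.

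Ier2 was scarce and scattered. In FC mice it ranged from 0 to 20.4 normalized CPM (median 0.0774) in dVenus+ and from 0 to 29.5 (median 0) in dVenus- libraries, reaching 10 counts in 5 and 3 of 12, and 82.2% of the dVenus- counts came from mouse 5. The log2 fold change was 1.96 ± 2.21 (adjusted p = 0.858), and 4.98 ± 2.71 without the 3 Arc mice (adjusted p = 0.742). NS mice showed Ier2 only in mouse 19, at 2.08 in dVenus+ and 3.97 normalized CPM in dVenus- cells. HC dVenus+ libraries held 32.9, 0 and 1.46 normalized CPM and HC dVenus- libraries none, at least 52.3-fold higher over the floor of 3 counts, with 91.6% of the counts from mouse 15 (adjusted p = 0.907).

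**Figure D3:**
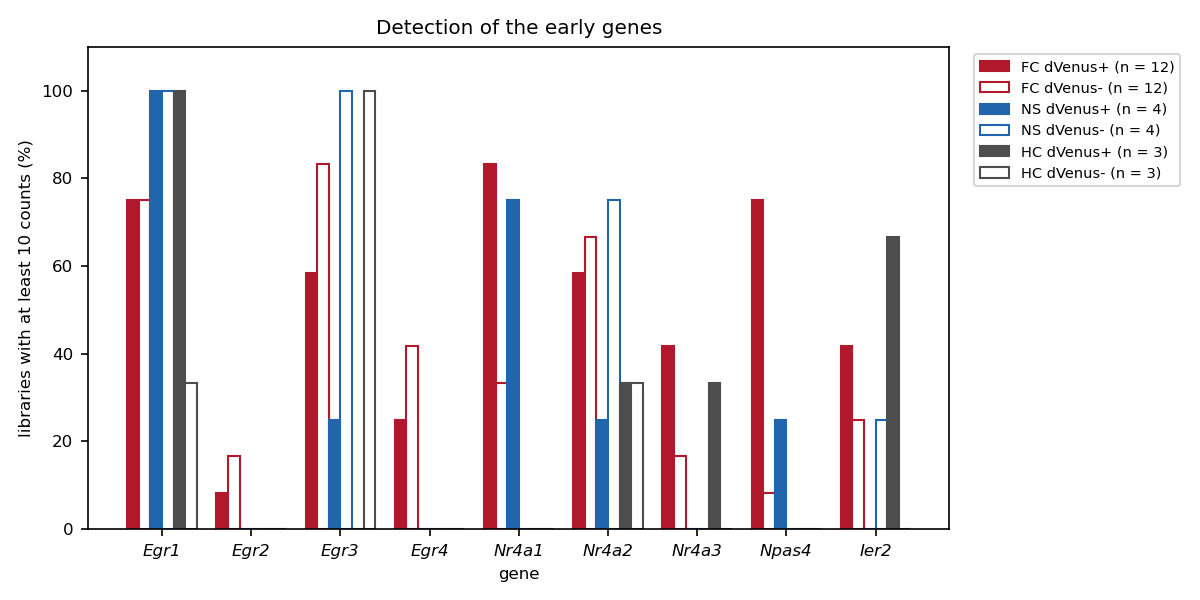
Share of libraries with at least 10 counts of each early gene (bars, percent, from 0), for dVenus+ (filled) and dVenus- (open) cells of FC (12 libraries of each type), NS (4) and HC (3) mice. Npas4 reached 10 counts in 9 of 12 FC dVenus+ and 1 of 12 FC dVenus- libraries, whereas Egr3 was found more often in dVenus- cells in each group.

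The calls over all genes give the scale for the members. Of the 4 that entered the filtered test in FC mice (Egr1, Egr3, Nr4a1 and Nr4a2) none was among the 137 genes called of 9709 (1.41%), of which 56 were higher (0.577%) and 81 lower (0.834%) in dVenus+ cells. At an unadjusted p under 0.05 there were 1238 genes, and DESeq2 called 1651. In the fit over all genes with a count, 1 of 9 members was called, and the median log2 fold change of the 9 was 0.08, against -0.17 over all 18089 genes. All 4 Egr genes were fitted below 0 and Npas4, Ier2, Nr4a1 and Nr4a3 above 0 with all mice, as was Nr4a2, but only Npas4 and Nr4a1 kept their sign in every alternative run. Size factors of DESeq2 in place of TMM moved the median log2 fold change of all 9709 genes from -0.21 to -0.08, with 65 genes called higher and 60 lower, and the signs of the 9 members held under both.

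In NS mice, 0 of 8187 genes were called (0%), with 384 at an unadjusted p under 0.05 and 671 called by DESeq2. The 3 members tested there, Egr1, Egr3 and Nr4a2, were not called by either tool. Over all genes with a count, 13 of 14508 were called (0.0896%). Arc, Lars2, Malat1, Rn45s and Snhg11 were higher in dVenus+ cells and Calb1 was among the other 8, which were lower, and no early gene was called. In HC mice, the 2 genes called were Lars2 and Rn45s, named after their values were seen, with 297 genes at an unadjusted p under 0.05 and 625 called by DESeq2. Over all genes with a count, 5 of 13941 were called (0.0359%): Arc, Lars2, Lrrc17, Malat1 and Rn45s.

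**Figure D4:**
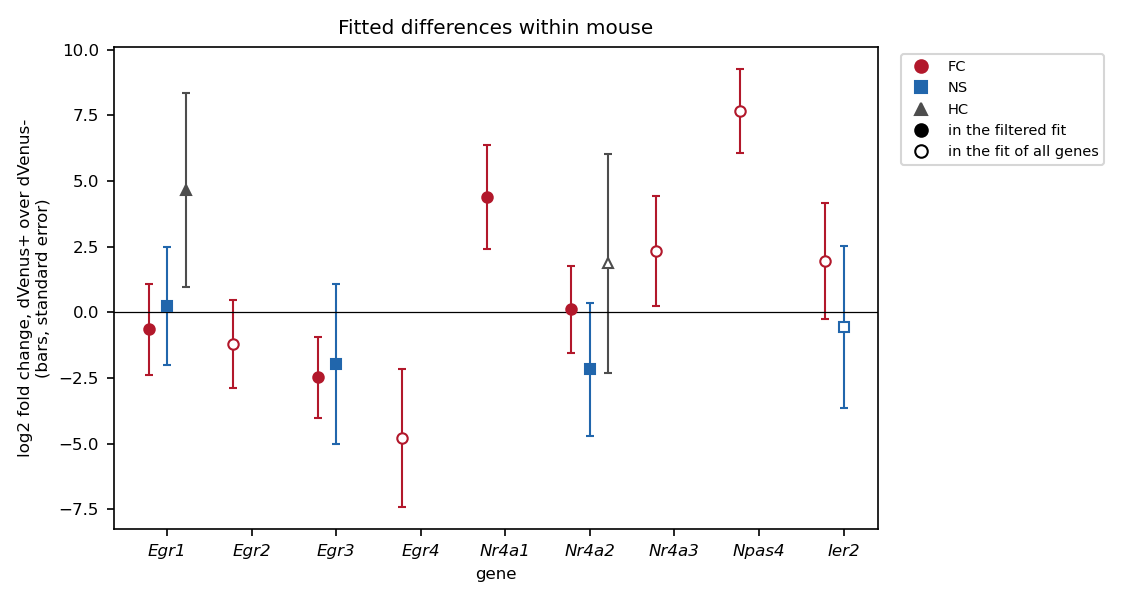
Fitted log2 fold change of dVenus+ over dVenus- cells within mouse (bars, standard error) for each early gene in FC, NS and HC mice, with filled symbols for genes in the filtered test and open symbols for those read from the fit of all genes. Cases with 3 counts or fewer in either cell type are left out. The errors were worked back from the test statistics, so that distance from 0 relative to the error repeats the test. By that measure Npas4 in FC mice (7.67 ± 1.60) lies farthest from 0.

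Whether the difference between dVenus+ and dVenus- cells changed with training was tested as an interaction over 14075 genes. No gene passed for FC against NS (0%) or FC against HC (0%), with 763 and 892 genes at an unadjusted p under 0.05 and 1219 and 1626 passing in DESeq2. For Nr4a1 the FC difference was smaller than the NS difference by -5.65 ± 4.76 on the log2 scale (adjusted p = 0.891), and for Npas4 it was larger by 2.93 ± 10.6 (adjusted p = 1). For Egr3 the FC difference exceeded the HC difference by 3.39 ± 3.09 (adjusted p = 0.823). NS against HC, added after the Nr4a1 counts were seen, gave 1 gene (0.0071%), Gcn1l1, and no early gene. Npas4, Nr4a1, Egr2 and Egr4 had no HC count to compare. The detection of Npas4 and Nr4a1 in FC and NS but not HC mice is thus a description and not a tested difference.

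Per kilobase of exon, Nr4a1 had the highest mean among the members in FC dVenus+ cells, at 7.41 ± 14.2 normalized CPM per kb (SD, n = 12), followed by Egr1 (5.06 ± 10.6), Npas4 (3.46 ± 4.25), Egr4 (2.99 ± 7.77) and Nr4a2 (2.69 ± 3.04). Ier2 (2.33 ± 4.05), Egr3 (0.927 ± 0.969), Nr4a3 (0.544 ± 1.18) and Egr2 (0.135 ± 0.43) came after them. In FC dVenus- cells Nr4a2 led with 5.44 ± 10.6 and Npas4 was last with 0.0518 ± 0.165. Without the 3 Arc mice, Egr3 (2.8 ± 2.14) came before Nr4a2 (2.52 ± 2.98) in dVenus- cells and Nr4a3 was last (0.0166 ± 0.0345), and in dVenus+ cells Nr4a1 was still first (8.98 ± 16.2) and Egr4 moved down to 0.981 ± 2.07 (SD, n = 9). The order leans on single libraries. Without mouse 3, which held 55% of the summed Nr4a1 level in dVenus+ cells, Nr4a1 was at 3.64 ± 5.73 and Egr1 was first at 5.13 ± 11.1 (SD, n = 11). Without the mouse highest for it, the dVenus+ mean was 2.11 ± 2.87 for Egr1 (mouse 4), 0.803 ± 1.89 for Egr4 (mouse 7), 0.214 ± 0.31 for Nr4a3 (mouse 1), 0.0112 ± 0.0371 for Egr2 (mouse 9) and 1.32 ± 2.15 for Ier2 (mouse 3). In dVenus- cells Egr1 was first without mouse 6 (3.38 ± 3.95), where Nr4a2 was at 2.49 ± 2.86. Npas4 fell to 0.00409 ± 0.00922 in dVenus- cells without mouse 3. With all 12 mice, no neighbors in either order differed by more than their SD. Arc, for scale, had 284 normalized CPM per kb in FC dVenus+ cells. In NS dVenus+ cells Nr4a1 led (15.5 ± 16.5), in NS dVenus- cells Egr1 (3.04 ± 1.69), in HC dVenus+ cells Nr4a2 (14.4 ± 24.6) and in HC dVenus- cells Egr1 (6.61 ± 11.1). The Nr4a1 lead in NS dVenus+ cells held with each mouse left out (10.7 to 20.7). The others did not: in NS dVenus- cells Nr4a2 was first without mouse 18, 19 or 20, in HC dVenus+ cells Egr1 without mouse 16 (12 ± 13.5), and in HC dVenus- cells Egr3 without mouse 17 (2.82 ± 2.82, SD, n = 2).

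The members did not all vary together over the 38 libraries. Spearman's rho of log2 CPM was 0.559 between Npas4 and Nr4a1, -0.287 between Egr3 and Nr4a1 and -0.0257 between Egr1 and Egr3. The value of 0.693 for Egr2 and Egr4 rests on the few libraries that held either. Among 11263 genes, those most like Npas4 were Svil, Gpr19 and Gm8179 (rho = 0.767, 0.719 and 0.701), and those most like Nr4a1 were Nptx2, Mtdh and Mbd3 (0.671, 0.658 and 0.655). Egr3 was closest to Mrpl17, Prkag2 and Pygb (0.68, 0.668 and 0.663) and Nr4a2 to Mid2, Zfp169 and Gpr89 (0.679, 0.654 and 0.648). Egr1 was closest to Bex1, Churc1 and Ypel3 (0.546, 0.54 and 0.536), and Ier2 to Fstl5, Cdh4 and Utrn (0.581, 0.559 and 0.555). These are descriptions over libraries that share mice, depth and sample series. They pool both cell types, and the genes named are the highest among all compared. Npas4 and Ier2 each reached 10 counts in 11 of the 38 libraries, and libraries without a count of a gene tie in rank.

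Of 8 genes listed as proposed targets of these factors, Arc picked the cells through its promoter, so that its difference is no finding. Without it, 5 were tested in FC mice, and Bdnf and Nptx2 were called higher in dVenus+ cells, where 0.577% of all genes were called higher. The median log2 fold change of the 5 was 0.12, against -0.21 over all genes tested. Bdnf, a neurotrophin controlled by Npas4 among others, was higher in 12 of 12 FC mice (511 ± 204 against 95 ± 48.5 normalized CPM, SD; log2 fold change 2.50 ± 0.33, adjusted p = 0.000633). Nptx2, which clusters AMPA receptors, was higher in 11 of 12 (7.62 ± 1.61, adjusted p = 0.0209). In NS mice both were also higher in dVenus+ cells in 4 of 4. The means there were 318 ± 87.9 against 43.6 ± 39.8 normalized CPM for Bdnf and 43.1 ± 26.5 against 0.381 ± 0.71 for Nptx2 (SD). In HC mice Bdnf was higher in 3 of 3 and Nptx2 in 2 of 3. Neither was called by edgeR in NS or HC mice (adjusted p = 0.905 and 0.991 in NS, 0.984 for each in HC), where the medians of the 5 were -0.22 and -0.05 against 0.20 and 0.11.

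Other rapid primary response genes were also mixed. Of 22 listed, 12 were tested in FC mice, and Dusp1, a MAP kinase phosphatase, and Gadd45b, a stress and DNA demethylation gene, were called higher in dVenus+ cells (log2 fold change 7.47 ± 1.73 and 6.41 ± 1.43, adjusted p = 0.0372 and 0.0289, in 10 and 12 of 12 mice). Over all genes 0.577% were called higher, and the list median was 0.62 against -0.21. None of the 11 in NS or 9 in HC mice was called (medians 0.44 and 1.46 against 0.20 and 0.11). The summed level of the 22 was higher in dVenus+ cells in 10 of 12 FC mice but lower in 3 of 4 NS and 3 of 3 HC mice. Jun was the most abundant of them in dVenus- cells of both groups, with means of 315 and 440 normalized CPM. Fos, the partner of Jun in AP-1, was present in 5 of 12 FC dVenus+ and 6 of 12 FC dVenus- libraries and was not called.

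Factors upstream of the Egr genes and Ier2 (Srf, its Elk partners and the MRTF genes) included no call among 6 tested in FC or 4 each in NS and HC mice (median log2 fold change -0.75, -0.22 and -1.38). The 3 MEF2 factors, which drive Nr4a1 in other cells, were not called either (medians -0.87, -2.03 and 0.04). The partners and corepressors, among them the Egr corepressors Nab1 and Nab2, the RXR partners of Nr4a1 and Nr4a2 and the Npas4 partners Arnt and Arnt2, had no call among 6, 6 and 4 tested (medians -0.72, 1.42 and -0.57). The lowest unadjusted p in FC mice belonged to Arnt2 (log2 fold change -3.19 ± 1.27, adjusted p = 0.257). Of the other Ier family genes, 2, 2 and 1 were tested and none called (medians 0.09, -1.16 and -1.04).

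Microglia markers were more abundant in most dVenus+ libraries. The 10 microglia markers summed to 36.1 to 2037 normalized CPM (median 244) in FC dVenus+ and 1.28 to 724 (median 58) in FC dVenus- libraries and were higher in dVenus+ cells in 12 of 12 FC, 4 of 4 NS and 2 of 3 HC mice. None of the 8 tested in FC mice was called, with a median of 3.80, C1qb was the most abundant, and none was at 0 in FC dVenus+ cells. NS dVenus+ libraries had 79.4 to 1432 and HC dVenus+ libraries 376 to 1220 of these summed CPM, against 7.61 to 500 and 27 to 502 in dVenus- libraries. The part of these cells in the levels of Npas4, Nr4a1 or the Egr genes was not tested.

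Granule cell markers were present in every library, and their sum was lower in dVenus+ cells in all 19 mice. In FC mice the 9 markers summed to 191 to 1133 (median 586) normalized CPM in dVenus+ and 545 to 2031 (median 1111) in dVenus- libraries. Calb1, a marker of mature granule cells, was called lower (log2 fold change -3.14 ± 0.58, adjusted p = 0.01), 1 of 9 tested with a median of -1.28. No granule cell marker was called in the filtered test of NS or HC mice (medians -1.29 and -2.10), whereas Calb1 was called lower in NS mice in the fit of all genes with a count (-4.77 ± 1.15, adjusted p = 0.0348, in 4 of 4 mice). In HC mice Calb1 was higher in dVenus+ cells in 2 of 3. Pdzd2 of the same list was fitted above 0 in FC, NS and HC mice (1.99 ± 0.57, 5.27 ± 3.23 and 1.79 ± 2.98) and was not called.

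The remaining lists set the background for the early genes. Astrocyte markers (7), led by Slc1a2, summed to a median of 259 in FC dVenus+ and 502 normalized CPM in FC dVenus- libraries, and oligodendrocyte markers (6), led by Mbp, to 497 and 546. Interneuron markers (6) summed to medians of 55.4 and 139, with Gad2 the most abundant in dVenus+ and Gad1 in dVenus- cells. The dVenus- libraries of FC mouse 10 and NS mouse 18 stood apart, at interneuron sums of 2482 and 1266. Oligodendrocyte precursor markers (2) had medians of 0.212 and 0.0307, and endothelium markers (3) of 0 and 0, with Pecam1 at 0 in both. The endothelium sums were highest in dVenus+ cells of NS mouse 19 (61.3) and HC mouse 15 (38.7). These libraries also held the highest NS Egr3 (79.2) and HC Ier2 (32.9) levels, and a link was not tested. In NS and HC mice the astrocyte sums had medians of 1580 and 1701 in dVenus+ and 1296 and 594 in dVenus- libraries, higher in dVenus+ cells in 2 of 4 and 3 of 3 mice, against 3 of 12 in FC. Their part in the HC levels of Egr1, Nr4a2 and Ier2 was not tested. None of the astrocyte, oligodendrocyte or interneuron markers that were tested was called in FC, NS or HC mice. No oligodendrocyte precursor marker passed the count filter, and of the endothelium markers none did in FC and 1 each in NS and HC mice, which was not called. Of the nuclear retained RNAs, Malat1 was called higher in dVenus+ cells of FC mice (log2 fold change 1.53 ± 0.31, adjusted p = 0.0149), 1 of 5 tested. The sum of the 6, most of it Malat1, was higher in dVenus+ cells in all 19 mice, whereas Miat was fitted below 0 in FC mice (-2.41 ± 0.66, adjusted p = 0.0792) and above 0 in NS and HC mice. Its bearing on the early genes was not tested.

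In the RefSeq annotation of GRCm38.p6 the members lie on different chromosomes: Npas4 at chr19:4984353-5003439, Nr4a1 at chr15:101253902-101274795, Nr4a2 at chr2:57106830-57124003, Nr4a3 at chr4:48045078-48086447, Egr1 at chr18:34861207-34864956, Egr2 at chr10:67534469-67542188, Egr3 at chr14:70077317-70082613, Egr4 at chr6:85511121-85513589 and Ier2 at chr8:84661331-84662852. Nr4a1 shares its chromosome with Arc (chr15:74669081-74672570), which was not near it.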

How the data were processed

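The authors aligned 50 base single reads from Smart-seq2 and Nextera XT libraries to mm10 with TopHat2 2.0.13 and deposited raw counts of unique alignments per gene from HTSeq 0.6.0. These counts were used as deposited, and between 16.4% and 59.7% of the entries of a library fell outside genes and were left out of library sizes. Groups follow sample titles, since the description labels of some NS and HC samples name other libraries. The members and gene lists were chosen with earlier results of these data known.

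Differences within mouse were tested with edgeR 4.0.16 (TMM, quasi-likelihood at defaults, mouse as block, Benjamini-Hochberg adjustment over all genes tested) in R 4.3.3, for genes with at least 10 counts in as many libraries as there were mice. Genes were called at an adjusted p under 0.05 and an absolute log2 fold change over 1. Members under the filter were read from the fit of all genes with a count, and the plan did not count these as called. Interactions used all 38 libraries and genes with at least 10 counts in 3. The filtered fit within each group was tested on simulated counts. The interaction fit and the fit of all genes with a count were not.

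Both libraries of a number come from the same mouse, so mouse was a block. Their deviations from the group means correlated weakly (median r 0.0387 in FC, -0.0168 in NS and 0.0303 in HC).

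The text names the members, Arc, list genes that were called or, with none called, that had one of the 3 lowest unadjusted p values of the list in FC, defining markers, and the 3 genes with the highest Spearman correlation (log2 CPM, prior count 2, 38 libraries) to each member with at least 10 counts in 10 libraries. Pdzd2, Miat, Jun and the genes called in NS and HC were named after their values were seen. Fos, Srf, Nab1 and Arnt are named outside the rule above, to describe their lists. Exon lengths are unions from GENCODE vM21. Alternatives were DESeq2 1.42.0 with its Wald test, its size factors, no count filter, the genes of a table of all libraries that the authors deposited (11802 genes, 7 of them members), no replicate block, each mouse left out, each FC sample series alone and FC without the 3 mice with over 100 Arc counts in dVenus- cells. The newer quasi-likelihood method of edgeR, the NS against HC interaction, the order of levels per kb without those 3 mice, levels per kb without the mouse highest for each member, the leading member per kb without each mouse, the Egr3 ratio in HC without mouse 15, the Nr4a1 ratio in NS without mouse 20 and the proposed targets without Arc were added after seeing the data.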

Additional observations from a re-analysis of the deposited data

Results flagged for a closer look

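In NS mice, 14 groups of 4 libraries with any count of a member were checked for a library far from the other 3, and 8 had one. In 6 of the 8 the other 3 libraries are at 0, so that any count sets 1 library apart, and no chance rate is given for them. Egr3 stood at 79.2 normalized CPM in dVenus+ cells of mouse 19, and Npas4 at 5.12 in dVenus+ cells of mouse 18. Ier2 stood at 2.08 in dVenus+ and 3.97 in dVenus- cells of mouse 19, and was at 0 in the other NS libraries. The others rest on 1 count each: Egr2 at 0.202 in dVenus+ cells of mouse 20, Nr4a1 at 0.181 in dVenus- cells of mouse 19, and Nr4a3 at 0.135 in dVenus+ cells of mouse 18 and 0.08 in dVenus- cells of mouse 21. Groups of 3 and 12 libraries were not checked in this way.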

How the results depend on the processing

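Over 40 results on members, 358 values were recomputed under alternatives, and 319 kept their direction and side of the threshold. Another 10 lost the call, all of them Npas4 in FC, set against its call in the fit of all genes with a count. A further 2 gained one (Nr4a1 in FC and NS with DESeq2) and 27 changed sign, none of them a called value. The cause was not tested, beyond the smaller number of mice where mice were left out.

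Genes called in FC numbered 1651 with DESeq2, 422 with the newer quasi-likelihood method, which was chosen after seeing the data, 10, 3 and 0 within the sample series of 2, 4 and 6 mice, and 45 without the 3 mice with Arc in dVenus- cells. Leaving out each FC mouse gave 56 to 118 calls (66 without mouse 1, 56 without mouse 3, 90 without mouse 6 and 79 without mouse 12). Among members in the test of each setting, the count called in FC was 1 with the genes of the authors' table (Npas4), 1 with DESeq2 (Nr4a1) and 1 with no count filter (Npas4). DESeq2 also called Npas4 over all genes with a count (6.90, adjusted p = 3.22e-05).

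Genes called in NS were 1 with size factors of DESeq2, 12 with the genes of the authors' table, 671 with DESeq2, 4 with the newer method, 13 with no count filter and 0 to 12 with each mouse left out (5, 12 and 10 without mouse 18, 19 and 21). In HC they were 0 with size factors, 5 with the authors' genes, 625 with DESeq2, 0 with no replicate block, 0 with the newer method and 5 with no count filter. No member that passed the filter was called in NS or HC in these counts, and under the filter DESeq2 called Nr4a1 in NS (10.15, adjusted p = 0.00291). Interaction genes by DESeq2 were 1219 for FC against NS, 1626 for FC against HC and 1402 for NS against HC, and 0 for the last with the newer method.

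Libraries of a mouse are paired by origin, and their deviations correlated weakly (median r 0.0387 in FC). With no replicate block the log2 fold change was 0.37 for Egr1, 1.47 for Egr4 and -0.98 for Nr4a2 in FC, and 1.23 for Egr3 in NS.

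Other changes of sign in FC were 0.86 for Egr1 and 0.27 for Egr2 without the 3 Arc mice, 0.65 for Egr2 with DESeq2 and -0.0822 for Nr4a2 with the newer method. Within sample series they were 1.34 for Egr3 and -0.56 for Nr4a2 in that of 2 mice, -3.74 for Nr4a3 and -3.44 for Ier2 in that of 4, and 3.92 for Egr2 and -0.0677 for Nr4a2 in that of 6. With each mouse left out, Egr2 ran from -3.03 to 0.22 (above 0 without mouse 4 or 6) and Nr4a2 from -0.57 to 0.78 (below 0 without mouse 3, 4, 7, 11, 12 or 13) in FC, Egr1 from -0.11 to 0.57 (below 0 without mouse 21) and Nr4a3 from -1.14 to 1.42 (below 0 without mouse 18) in NS, and Nr4a2 from -0.22 to 6.24 (below 0 without mouse 16) in HC. DESeq2 gave 0.36 for Ier2 in NS and 0.42 for the Nr4a3 interaction of FC against HC.

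Depth limits the rare members: 3 counts over a group correspond to 0.0355 CPM in FC dVenus+ and 0.0258 in FC dVenus- cells, and to 0.147 and 0.122 in HC. These limits leave out the TMM factors. A difference below these limits was not detectable.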
